A study of Mus musculus with 8 samples.

Results

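The Kruppel-like factors are zinc finger transcription factors, and 10 of their genes are described here in LLC1 and MLE12 cells. The members were fixed by name as Klf2, Klf3, Klf4, Klf5, Klf6, Klf7, Klf9, Klf10, Klf13 and Klf15. Each name matched 1 row of the deposited table of 43346 genes, and all 10 had enough counts to be among the 18546 genes tested. The series holds 8 mouse libraries, 4 of LLC1 and 4 of MLE12, from cells that received no reagent and were harvested at about 80% confluence. LLC1 cells derive from the Lewis lung carcinoma, a tumour that arose in a C57BL mouse. MLE12 cells derive from a pulmonary tumour of a transgenic mouse in which SV40 large T antigen was expressed from the surfactant protein C promoter, which is active in alveolar type II cells. Each group is thus 1 cell line, and differences between the lines cannot be told apart from differences in strain, tumour of origin or culture.

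Kruppel-like factors share a carboxy-terminal run of zinc fingers that binds GC-rich and CACCC sequences, while their amino-terminal parts differ and set the partners they recruit. Klf2, Klf4, Klf5, Klf6 and Klf7 belong to a class that works largely with acetyltransferases such as p300 and CBP. Klf3 recruits the CtBP corepressors, and Klf9, Klf10 and Klf13 bind the Sin3 corepressor complex. Klf15 lies outside these classes and is known for its role in amino acid and glucose metabolism. In the mouse lung, Klf2 and Klf5 are both required for normal development around birth, and Klf4 is known as a regulator of epithelial differentiation.

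Libraries held 46.8 to 55.3 M counts in LLC1 and 48.6 to 76.7 M in MLE12, and a count of 0, which allows up to 3 counts, left room for at most 0.0693 CPM in the library of the smallest scaled size. CPM are counts scaled to library size with TMM factors, as edgeR computes them. Such limits cover counting error only, and they would be too low if both mates of a fragment were counted. The lines were checked against marker genes: Nkx2-1, Sftpc, Sftpb, Cdh1 and Epcam stood at 0.36% to 0.96% of their MLE12 level in LLC1, while the keratin genes Krt8 and Krt18 were higher in LLC1. Of the 7 lung epithelial markers, 5 were thus higher in MLE12 and 2 were higher in LLC1. In MLE12 itself, Krt8 stood at 106 ± 2.78 CPM and Krt18 at 0.93 ± 0.315 CPM. The 7 endothelial markers summed to 0.571 to 1.12 CPM in LLC1 and 3.44 to 4.07 CPM in MLE12, with Tie1 and Emcn at 0 in both. Most of that sum in MLE12 was Tek (2.95 CPM). The 7 leukocyte markers summed to 18.1 to 20.4 CPM in LLC1 and 13.8 to 16.5 CPM in MLE12, nearly all from Csf1r and Cd68, with Ptprc at 0 counts in LLC1 and 2 in MLE12. The 7 mesenchymal markers summed to 5338 to 5747 CPM in LLC1 and 1025 to 1073 CPM in MLE12, and most of these sums was Vim and Col3a1. Of these 7, Vim, Col3a1, Pdgfra and Twist1 were higher in LLC1, while Cdh2 (-1.99 on the log2 fold scale), Col1a1 (-5.79) and Col1a2 (-6.87) were higher in MLE12. The part of these marker lists in the results on Kruppel-like factors was not tested.

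The comparison asks which members of the family LLC1 and MLE12 cells express differently. Klf5 and Klf10 were higher in LLC1 by more than 2-fold, and Klf3, Klf4 and Klf15 were lower in LLC1 by more than 2-fold. Klf7, Klf13 and Klf9 were higher and Klf6 lower in LLC1 by smaller amounts, and Klf2 did not pass the test. With edgeR (quasi-likelihood F test, Benjamini-Hochberg adjusted over all genes tested, threshold 0.05), 5 of the 10 members were higher in LLC1, where 40.7% of all genes were, and 4 were higher in MLE12, where 40.9% of all genes were. With 9 of 10 called, the share lay near that of all genes (81.6%). Tested against a minimum fold of 2, 2 members were higher in LLC1 (16.7% of all genes) and 3 were higher in MLE12 (16.9%), which makes 5 of 10 beside 33.7% of all genes. Library values did not overlap between the lines for 9 members, as for 76.3% of all genes. The median log2 fold change of the members was -0.02 and their median absolute log2 fold change was 0.87, beside 0.02 and 0.74 over all genes tested. Log2 fold changes are LLC1 over MLE12 with their standard errors, and levels are mean ± SD in CPM with n = 4 per line.

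**Figure D1:**
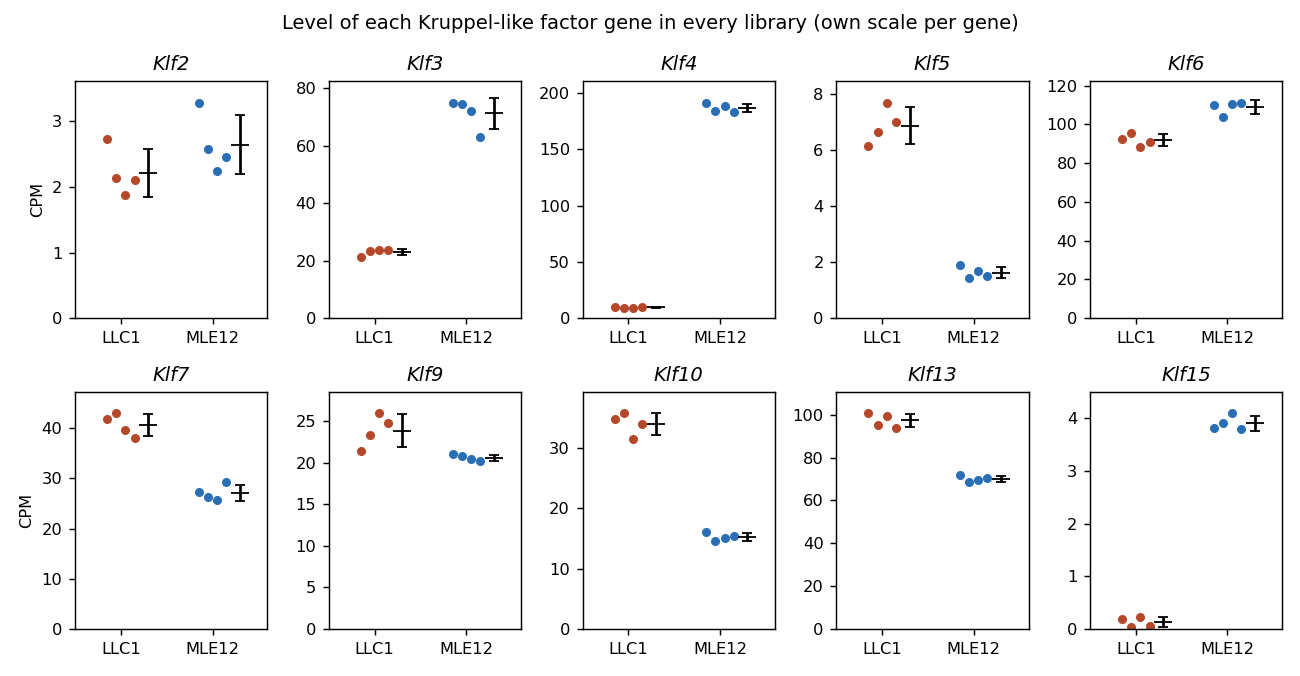
CPM (vertical axis, starting at 0, own scale per gene) of the 10 Kruppel-like factor genes, with 4 libraries of LLC1 (red points) left of 4 libraries of MLE12 (blue points); black bars are the mean and SD. The lines are apart for every gene shown except Klf2, and the widest gaps are those of Klf4 and Klf15.

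**Figure D2:**
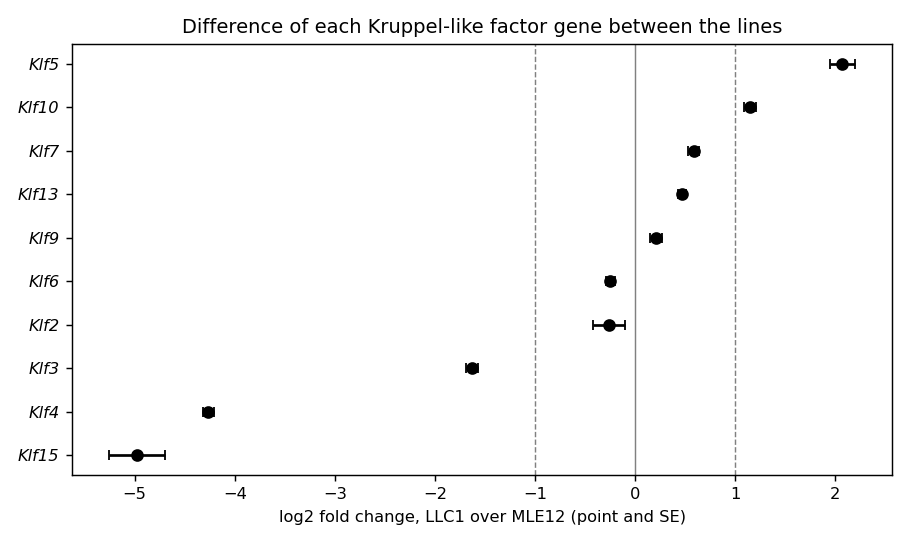
Log2 fold change of each member, LLC1 over MLE12 (horizontal axis; points with SE bars), with dashed lines at a fold of 2 in each direction. Klf5 (2.07) and Klf10 (1.15) lie beyond the line on the LLC1 side, and Klf3 (-1.63), Klf4 (-4.26) and Klf15 (-4.98) beyond it on the MLE12 side.

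Klf4 encodes a zinc finger factor of differentiating epithelia that is also used to reprogram cells to pluripotency (ENSMUSG00000003032, mm10 chromosome 4, 55527143 to 55532466, minus strand). It had 10.03, 9.15, 9.28 and 10.4 CPM in the LLC1 libraries, against 191, 184, 188 and 183 CPM in the MLE12 libraries. All LLC1 values were far below all MLE12 values, and the libraries of each line lay close together. The means were 9.71 ± 0.596 CPM in LLC1, against 187 ± 3.83 CPM in MLE12, and the log2 fold change was -4.26 ± 0.05 (adjusted p = 2.5e-22) or 19.2-fold. On a scale of CPM per kb of gene length, Klf4 stood at the 44.3 percentile of the tested genes in LLC1 and at the 95.0 percentile in MLE12.

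Klf5, which drives proliferation of epithelial progenitors such as those of the intestinal crypt, is often described as the counterpart of Klf4 (ENSMUSG00000005148, chromosome 14, 99298691 to 99313405, plus strand). It had 6.12, 6.64, 7.69 and 7.0 CPM in the LLC1 libraries, against 1.89, 1.43, 1.67 and 1.5 CPM in the MLE12 libraries. Every LLC1 library was above every MLE12 library, although the gene was modest in both lines. The means were 6.86 ± 0.657 CPM in LLC1, against 1.62 ± 0.204 CPM in MLE12, and the log2 fold change was 2.07 ± 0.13 (adjusted p = 1.4e-11). Among the members this was the highest fold toward LLC1, 4.21-fold. Klf4 and Klf5 thus differed between the lines in opposite directions. Per kb and within a library, Klf4 stood at 0.681 to 0.924 times the level of Klf5 in LLC1 and at 57.2 to 72.6 times its level in MLE12, a ratio that does not depend on how libraries are scaled to each other.

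Klf6, a factor induced early after tissue injury and described as a tumour suppressor, was abundant in both lines (ENSMUSG00000000078, chromosome 13, 5861489 to 5870393, plus strand). It had 92.7, 95.5, 88.3 and 90.8 CPM in the LLC1 libraries, against 110.2, 104, 110.4 and 111 CPM in the MLE12 libraries. The lines did not overlap, but the difference was small: 91.8 ± 3.01 CPM in LLC1, against 109 ± 3.55 CPM in MLE12, and the log2 fold change was -0.25 ± 0.04 (adjusted p = 3.1e-05). Klf7, known for its part in axon growth and neuronal differentiation, had 41.8, 43.0, 39.6 and 38.0 CPM in the LLC1 libraries, against 27.2, 26.3, 25.6 and 29.2 CPM in the MLE12 libraries (ENSMUSG00000025959, chromosome 1, 64029447 to 64122282, minus strand). All LLC1 values were above all MLE12 values, and the log2 fold change was 0.59 ± 0.06 (adjusted p = 1.3e-08). The opposite-strand gene Gm26649 lies within the 3′ part of Klf7 and held counts equal to 47.7% of those of Klf7 in LLC1 and 43.5% in MLE12. The counting strand is not given in the sources used here, so reads of this pair cannot be told apart. Genes that overlap Klf3, Klf9 and Klf13 held at most 1.55% of the counts of the member in either line.

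Klf2, which keeps endothelial cells and naive T cells quiescent, had 2.73, 2.13, 1.88 and 2.11 CPM in the LLC1 libraries, against 3.29, 2.59, 2.25 and 2.46 CPM in the MLE12 libraries (ENSMUSG00000055148, chromosome 8, 72319033 to 72321656, plus strand). The ranges overlapped and the difference did not pass the test, with 2.21 ± 0.361 CPM in LLC1, 2.64 ± 0.45 CPM in MLE12 and -0.26 ± 0.16 on the log2 fold scale (adjusted p = 0.14). Scaled by library totals alone, the difference of Klf2 was -0.37 and passed (adjusted p = 0.043). The coefficient of variation of Klf2 was 16.3% in LLC1 and 17.0% in MLE12, compared with 3.28% in LLC1 and 3.26% in MLE12 for Klf6.

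Klf3 is the corepressor-recruiting member, with roles described in fat and B cells (ENSMUSG00000029178, chromosome 5, 64803523 to 64830129, plus strand). It had 21.4, 23.4, 23.6 and 23.8 CPM in the LLC1 libraries, against 75.1, 74.8, 72.1 and 63.3 CPM in the MLE12 libraries. Although MLE12 replicate 4 was the lowest of its line, it stood well above every LLC1 library. The means were 23.1 ± 1.09 CPM in LLC1, against 71.3 ± 5.52 CPM in MLE12, and the log2 fold change was -1.63 ± 0.06 (adjusted p = 2.9e-15) or 3.09-fold.

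Among the Sin3-binding members, Klf10, first described as a gene that TGF-beta induces early, differed most (ENSMUSG00000037465, chromosome 15, 38294413 to 38300707, minus strand). It had 34.8, 35.8, 31.5 and 34.0 CPM in the LLC1 libraries, against 16.2, 14.6, 15.02 and 15.4 CPM in the MLE12 libraries. No MLE12 library came near an LLC1 library. The log2 fold change was 1.15 ± 0.06 (adjusted p = 7.7e-13), or 2.22-fold. Tested against a fold of 2 its adjusted p was 0.0067 with edgeR's glmTreat, but 0.053 with DESeq2 and 0.21 with library totals alone, so that its place past 2-fold depended on the method.

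Klf13, an activator of the chemokine gene Ccl5 in T cells that also acts in heart development, had 101, 95.2, 99.4 and 94.0 CPM in the LLC1 libraries, against 71.9, 68.6, 69.6 and 70.4 CPM in the MLE12 libraries (ENSMUSG00000052040, chromosome 7, 63886347 to 63938915, minus strand). It was higher in every LLC1 library, and the log2 fold change was 0.47 ± 0.04 (adjusted p = 3.6e-09). Klf9, a gene induced by glucocorticoid and thyroid hormones, had 21.4, 23.3, 25.9 and 24.8 CPM in the LLC1 libraries, against 21.0, 20.7, 20.4 and 20.2 CPM in the MLE12 libraries (ENSMUSG00000033863, chromosome 19, 23141226 to 23166911, plus strand). The lines were apart only narrowly, since the lowest LLC1 library lay just above the highest MLE12 library. The log2 fold change was 0.21 ± 0.06 (adjusted p = 0.0048), and it was 0.11 without a call when libraries were scaled by their totals alone (adjusted p = 0.15).

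Klf15, a glucocorticoid-induced factor of amino acid breakdown and glucose production, was close to the detection limit in LLC1 (ENSMUSG00000030087, chromosome 6, 90462576 to 90475238, plus strand). It had 0.185, 0.0374, 0.227 and 0.0571 CPM in the LLC1 libraries, against 3.82, 3.91, 4.10 and 3.80 CPM in the MLE12 libraries. These rested on 8, 2, 11 and 3 counts in LLC1 and on 295, 295, 323 and 190 counts in MLE12. All LLC1 libraries were far below all MLE12 libraries, and per kb the gene lay at the 6.06 percentile of tested genes in LLC1 and the 33.4 percentile in MLE12. The log2 fold change was -4.98 ± 0.28 (adjusted p = 2.9e-12), with the largest SE among the members, and over the settings tried it ran from -5.45 to -4.65. Among 2341 genes of at least 100 CPM in MLE12, the lowest level left in LLC1 was 0.325% of the MLE12 level (Cyp1b1). The median level left over these genes was 82.3%. Klf4, which is among those genes, kept 5.2% of its MLE12 level in LLC1, and Klf15, which is below that level, kept 3.24%.

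The promoters of the 3 members with the highest folds toward MLE12 are shown because these genes shared a direction. The window runs from 250 bases before to 50 bases after the RefSeq start on the gene's own strand (RefSeq, GRCm38.p6, the build mm10), and capitals mark matches to CCNCNCCC on either strand, a short form of the sequence that Kruppel-like and Sp factors bind. Klf4 is at chr4:55532426-55532725 on the minus strand, Klf3 at chr5:64803271-64803570 on the plus strand and Klf15 at chr6:90462326-90462625 on the plus strand.
Klf4: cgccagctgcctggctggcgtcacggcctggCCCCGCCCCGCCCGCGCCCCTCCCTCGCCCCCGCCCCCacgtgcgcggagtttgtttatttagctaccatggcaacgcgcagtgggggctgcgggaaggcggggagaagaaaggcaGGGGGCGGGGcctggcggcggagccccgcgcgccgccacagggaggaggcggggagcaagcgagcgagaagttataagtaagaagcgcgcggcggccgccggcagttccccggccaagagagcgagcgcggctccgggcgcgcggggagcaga
Klf3: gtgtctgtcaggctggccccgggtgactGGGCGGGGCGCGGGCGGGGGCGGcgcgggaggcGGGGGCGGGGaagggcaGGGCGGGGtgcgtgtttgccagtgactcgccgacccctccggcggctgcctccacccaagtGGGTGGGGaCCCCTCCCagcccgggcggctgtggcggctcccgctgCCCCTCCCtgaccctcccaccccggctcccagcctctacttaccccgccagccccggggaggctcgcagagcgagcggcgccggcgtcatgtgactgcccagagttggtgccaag
Klf15: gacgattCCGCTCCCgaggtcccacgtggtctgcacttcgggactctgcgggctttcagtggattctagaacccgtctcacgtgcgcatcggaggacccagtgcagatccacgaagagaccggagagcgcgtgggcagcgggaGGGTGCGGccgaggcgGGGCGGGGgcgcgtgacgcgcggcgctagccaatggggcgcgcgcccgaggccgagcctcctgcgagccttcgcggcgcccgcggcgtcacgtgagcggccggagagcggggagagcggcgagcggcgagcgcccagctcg
Of the 10 members, 8 matched a RefSeq promoter, and those of Klf5 and Klf10 are not shown. At least 1 match to CCNCNCCC was found in 7 of the 8, and in 49.5% of 32851 promoters of that length. The promoters held 10 matches in Klf3, 9 in Klf4, 8 in Klf7, 5 in Klf13, 4 in Klf2, 3 each in Klf6 and Klf15 and 0 in Klf9, and 8.16% of all promoters held 5 or more. Matches may overlap each other and also the GC box CCGCCC, which was present in 7 of the 8 and in 35.7% of all promoters. TATAAA was found in 0 of the 8 and in 13.6% of all promoters. Of the members with 5 or more matches, Klf7 and Klf13 were higher in LLC1 and Klf3 and Klf4 lower. Klf5 and Klf10, the members past 2-fold toward LLC1, had no promoter in the set. The window of Klf7 (chr1:64121340-64121639, minus strand) lies inside the gene as counted, which reaches to 64122282. A link between matches and direction of change was not tested. The 8 promoters ranged from 58.3% (Klf7) to 76.7% (Klf3) G and C, beside a median of 52.7% over all promoters. CCNCNCCC and CCGCCC consist largely of these letters, and the part of base content in the counts of matches was not tested. A match describes letters in the window and is no evidence of binding.

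Levels of different members were compared per kb of gene length. In LLC1 the order was Klf6 (21.8 CPM per kb), Klf13 (12.9), Klf10 (11.2), Klf3 (9.30), Klf9 (7.31), Klf7 (4.99), Klf5 (3.99), Klf4 (3.19), Klf2 (1.20) and Klf15 (0.0501). No neighbours in this order overlapped in their library values, but the order also depends on the gene lengths used. By CPM alone, Klf4 (9.71 CPM) stood above Klf5 (6.86 CPM) in LLC1. In MLE12 the order was Klf4 (61.2 CPM per kb), Klf3 (28.8), Klf6 (25.8), Klf13 (9.31), Klf9 (6.31), Klf10 (5.03), Klf7 (3.33), Klf15 (1.55), Klf2 (1.43) and Klf5 (0.944). There, Klf3 and Klf6 overlapped, as did Klf15 and Klf2, and the other neighbours were apart. Klf4 therefore stood in place 8 of 10 in LLC1 and in place 1 in MLE12, whereas Klf5 stood in place 7 in LLC1 and in place 10 in MLE12.

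Summed over the 10 members, the level was 75.5 to 76.9 CPM per kb in the LLC1 libraries and 139.8 to 148 CPM per kb in the MLE12 libraries. Klf4 alone made up 4.2% ± 0.279 of this sum in LLC1 and 42.6% ± 0.266 in MLE12. Without Klf4 the sums were 72.2 to 73.9 CPM per kb in LLC1 and 79.8 to 85.5 CPM per kb in MLE12. Without Klf3 and Klf4 the order of the lines turned, with 62.7 to 64.5 CPM per kb in LLC1 and 51.8 to 55.2 CPM per kb in MLE12. The Sin3-binding members Klf9, Klf10 and Klf13 together made up 41.4% ± 0.303 of the sum in LLC1 and 14.4% ± 0.261 in MLE12, a share that also moves with Klf3 and Klf4. Their own summed level was 31.4 ± 0.132 CPM per kb in LLC1 and 20.6 ± 0.45 CPM per kb in MLE12. Klf16 (15.7 CPM per kb in LLC1, 14.9 in MLE12) and Klf11 (2.90 in LLC1, 3.03 in MLE12) also bind Sin3. Both lie outside the 10 members and are left out of these sums. The acetyltransferase class of Klf2, Klf4, Klf5, Klf6 and Klf7 made up 46.3% ± 0.655 in LLC1 and 64.5% ± 1.02 in MLE12. Without Klf4, the summed level of that class was 31.3 to 32.9 CPM per kb in LLC1 and 30.03 to 32.4 CPM per kb in MLE12, and these ranges overlapped. Within a library, Klf10 stood at 0.493 to 0.520 times the level of Klf6 per kb in LLC1 and at 0.188 to 0.203 times its level in MLE12. These sums and shares are descriptions of genes chosen by name and were not tested.

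**Figure D3:**
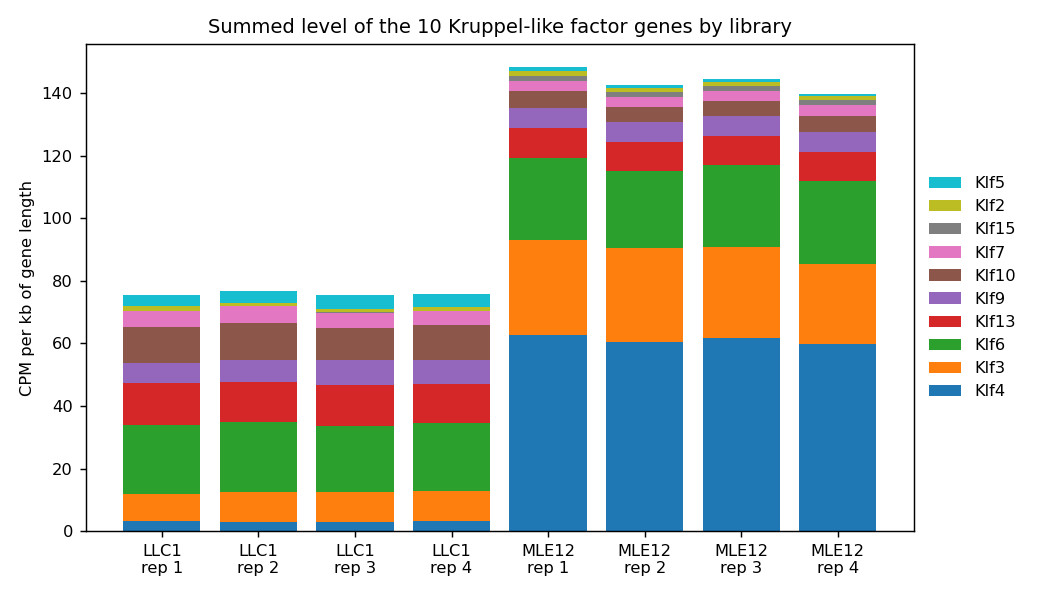
Stacked bars of CPM per kb of gene length for the 10 members (colours) in each of 4 LLC1 and 4 MLE12 libraries. The bars reach 75.5 to 76.9 in LLC1 and 139.8 to 148 in MLE12. Klf4 (lowest block) and Klf3 (above it) are taller in MLE12. The other 8 members together have a mean of 63.4 in LLC1 and 53.7 in MLE12.

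Of the 7 other Klf genes, 4 were tested, of which 0 were higher in LLC1 and 1 was higher in MLE12 (40.9% of all genes), with a median log2 fold change of -0.28. Klf16, a Sin3-binding member, stood at 41.9 ± 2.95 CPM in LLC1, against 40.0 ± 2.10 CPM in MLE12 (log2 fold change 0.07 ± 0.06, adjusted p = 0.29). Klf11, another of that class, stood at 12.3 ± 0.271 CPM in LLC1, against 12.8 ± 0.336 CPM in MLE12 (-0.06 ± 0.07, adjusted p = 0.38). Klf8, a CtBP-recruiting relative of Klf3, had 0.116, 0.505, 0.475 and 0.495 CPM in LLC1, against 2.25, 2.25, 2.63 and 1.92 CPM in MLE12. It was the only one of the 4 tested that passed (-2.48 ± 0.27, adjusted p = 7.6e-08). Klf1, the erythroid factor, stood at 0.342 ± 0.0788 CPM in LLC1, against 0.490 ± 0.141 CPM in MLE12 (adjusted p = 0.15). Klf12 had 0 counts in all 8 libraries, Klf14 had 2 counts in LLC1 and 19 in MLE12, and Klf17 had 2 in LLC1 and 0 in MLE12.

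The Sp factors bind the same GC-rich sequences through related zinc fingers. Of 9 listed, 8 were tested: 1 was higher in LLC1 and 7 were higher in MLE12, 4 of them past 2-fold, where 40.7%, 40.9% and 16.9% of all genes were. Their median log2 fold change was -0.96, beside 0.02 over all genes tested. Sp1, the ubiquitous member, stood at 176 ± 1.71 CPM in LLC1, against 142 ± 3.52 CPM in MLE12 (0.31 ± 0.04, adjusted p = 6.0e-07). Sp8, a developmental factor of limb and brain patterning, stood at 0.112 ± 0.0561 CPM in LLC1, against 41.1 ± 2.11 CPM in MLE12 (-8.50 ± 0.14). Among Sp genes of at least 10 CPM in either line, Sp4 (-1.35 ± 0.07), Sp2 (-0.51 ± 0.06) and Sp3 (-0.15 ± 0.04) were also higher in MLE12. Sp5, a Wnt-responsive gene, had 1 count over the LLC1 libraries and 222 over the MLE12 libraries.

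Of 12 cofactor genes tested, through whose products the family acts, 1 was higher in LLC1, 9 were higher in MLE12 and 2 did not pass, where 40.7% and 40.9% of all genes were called in these directions. Past 2-fold there was only the acetyltransferase gene Kat2b (20.6 ± 1.1 CPM in LLC1, against 71.0 ± 2.98 CPM in MLE12, log2 fold change -1.78 ± 0.05). Of all genes, 16.7% were past 2-fold toward LLC1 and 16.9% toward MLE12. The Sin3 gene Sin3b (-0.98 ± 0.04) and the acetyltransferase gene Crebbp (-0.72 ± 0.05) were higher in MLE12, and the deacetylase gene Hdac1 (0.16 ± 0.04) was higher in LLC1. Ctbp1, a partner of Klf3, was at 156 ± 6.63 CPM in LLC1, against 227 ± 8.76 CPM in MLE12 (-0.54 ± 0.04), and Ctbp2 did not pass (0.02 ± 0.05, adjusted p = 0.71). The median log2 fold change of the cofactors was -0.30, beside 0.02 over all genes tested.

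Genes known to regulate members numbered 16 tested, of which 6 were higher in LLC1 and 8 in MLE12 while 2 did not pass. These shares lie near the 40.7% and 40.9% of all genes, and the median log2 fold change was -0.25, beside 0.02 over all genes tested. The kinase genes Map2k5 (0.63 ± 0.05) and Mapk7 (0.43 ± 0.05), which in endothelial cells raise Klf2 and Klf4 through MEF2 factors, were higher in LLC1. Mef2c, chosen after its values were seen, had 3 counts over the LLC1 libraries and 2777 over the MLE12 libraries, with 0.0157 ± 0.0106 CPM in LLC1, against 9.99 ± 1.11 CPM in MLE12. Its relative Mef2d was higher in LLC1 (0.38 ± 0.05), and Mef2a did not pass (0.09 ± 0.04, adjusted p = 0.072). The promoter of Klf2 (chr8:72318812-72319111, plus strand, RefSeq, GRCm38.p6) is shown because it was the only one of the 8 with a match to the MEF2 sequence (CTA and TAG with any 4 bases between, its own reverse complement in form), here in capitals, which 3.69% of all promoters held.
Klf2: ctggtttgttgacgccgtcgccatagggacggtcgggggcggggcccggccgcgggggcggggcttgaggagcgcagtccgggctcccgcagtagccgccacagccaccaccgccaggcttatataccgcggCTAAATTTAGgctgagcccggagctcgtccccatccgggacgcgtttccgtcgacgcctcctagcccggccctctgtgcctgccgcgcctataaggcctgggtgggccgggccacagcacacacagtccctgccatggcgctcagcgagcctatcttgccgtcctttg
The difference of Klf2 itself did not pass the test, and Klf4 was lower in LLC1 (-4.26 ± 0.05), as given above. Foxo1, an activator of Klf2 in T cells, stood at 1.47 ± 0.281 CPM in LLC1, against 14.9 ± 0.802 CPM in MLE12 (-3.33 ± 0.11). The TGF-beta receptor gene Tgfbr2 was at 46.6 ± 2.95 CPM in LLC1, against 244 ± 9.44 CPM in MLE12 (-2.39 ± 0.05), and Smad2 (-1.0 ± 0.05) was also higher in MLE12, while the TGF-beta-inducible Klf10 was higher in LLC1. The glucocorticoid receptor gene Nr3c1 was higher in LLC1 (109 ± 3.13 CPM in LLC1, against 76.8 ± 2.12 CPM in MLE12; 0.50 ± 0.04), as was Klf9, whereas Klf15 was lower there. Btrc, which encodes a ubiquitin ligase subunit that acts on Klf4, was higher in LLC1 (0.50 ± 0.06). Vhl, another ligase subunit gene of the list, was higher in MLE12 (-0.95 ± 0.05).

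**Figure D4:**
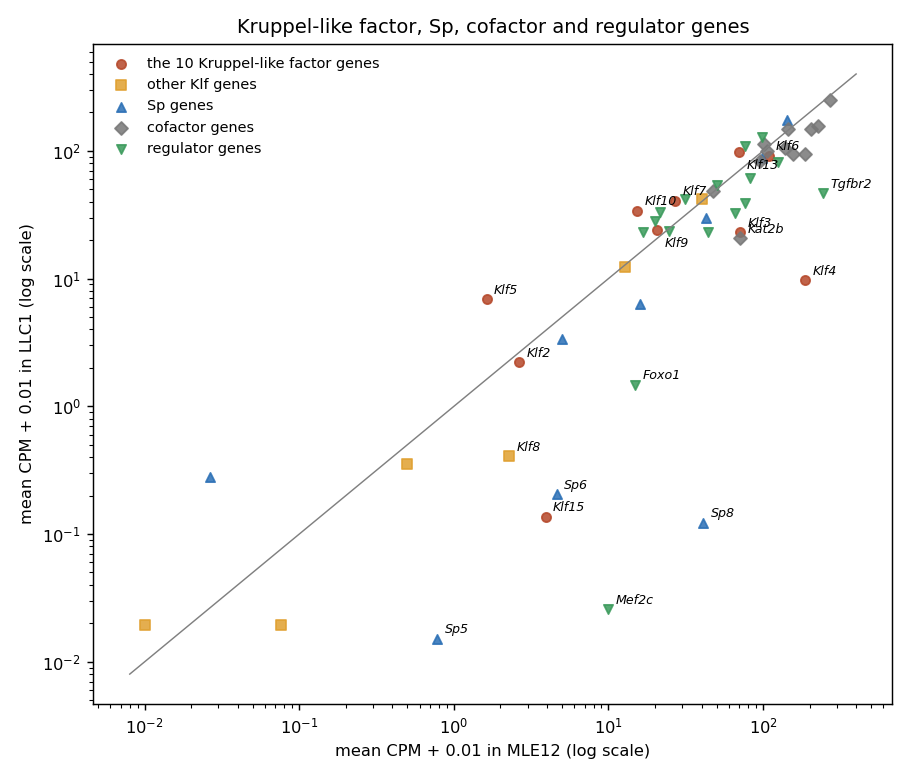
Mean CPM + 0.01 in LLC1 (vertical axis) against MLE12 (horizontal axis), both on log scales, for the members and for other Klf, Sp, cofactor and regulator genes with at least 1 count; points below the diagonal are higher in MLE12. Klf4, Klf15, Sp8, Sp5, Sp6, Foxo1 and Mef2c lie far below the diagonal and Klf5 lies farthest above it among the members.

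Of 18 listed genes that are described as targets of members in other tissues, 16 were tested, of which 8 were higher in LLC1 and 6 in MLE12 while 2 did not pass. The 14 called of 16 lie near the 81.6% of all genes, and the median log2 fold change was 0.33, beside 0.02 over all genes tested. Past 2-fold, 5 were higher in LLC1 and 4 in MLE12, where 16.7% and 16.9% of all genes were. The median absolute log2 fold change of the tested targets was 2.83, beside 0.74 over all genes tested. Prodh, a proline breakdown gene that Klf15 activates in liver, was higher in LLC1 (5.33 ± 0.08), where Klf15 was lower. Thbd, the thrombomodulin gene that Klf2 activates in endothelium, was higher in LLC1 (10.8 ± 0.901 CPM in LLC1, against 0.314 ± 0.0835 CPM in MLE12; 5.06 ± 0.15), and Eng, described as a target of Klf6, was too (5.06 ± 0.08). Cdh1, an epithelial gene that Klf4 activates in breast cells, was higher in MLE12, as Klf4 was (-8.11 ± 0.07). Cdkn1a, a cell cycle inhibitor gene that Klf4 also activates, went the other way, with 164 ± 5.6 CPM in LLC1, against 21.0 ± 0.508 CPM in MLE12 (2.97 ± 0.05). Pdgfa, described as a target of Klf5, was lower in LLC1 (-2.72 ± 0.07), where Klf5 was higher, and Ctgf, which Klf15 represses in heart cells, was also lower in LLC1 (-7.36 ± 0.08). Ccnd1, a cyclin gene described as a target of Klf5, did not pass (-0.07 ± 0.04, adjusted p = 0.12).

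Genes with the pattern most like a member were taken by the smallest Euclidean distance in log2(CPM + 0.1) over the 8 libraries. For Klf5 these were Fbxo36 (distance 0.348), Slc2a9 (0.494) and Slmo1 (0.566). Fbxo36 stood at 6.38 ± 0.404 CPM in LLC1, against 1.52 ± 0.195 CPM in MLE12. For Klf15 they were Podn (distance 0.893), Spint1 (0.991) and Zdhhc15 (1.1), and Podn stood at 0.119 ± 0.0357 CPM in LLC1, against 3.85 ± 0.581 CPM in MLE12. Because the libraries come from 2 lines, this measure compares levels in 2 states with their replicates.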

How the data were processed

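Poly-A RNA from 4 libraries of each line was sequenced as paired ends, per the labels' protocols. The authors deposited a table of raw counts per gene with a gene length. The submitters' processing notes name the tools CASAVA, TopHat2, featureCounts and edgeR and the build mm10, without roles. Strand setting and annotation release are not given in the sources used here. In each library more genes had 2 counts than 1, so both mates of a fragment may have been counted. Nothing in the labels says that the libraries of a line were separate cultures, and the p-values therefore reflect only how far these samples scatter, a spread that may be technical. No pair of libraries agreed within sampling noise (chi-square over its degrees of freedom, 6.76 to 58.4).

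The deposited counts were fitted with edgeR 4.0.16 in R 4.3.3 (filterByExpr, TMM, robust glmQLFit, glmQLFTest, and glmTreat against a fold of 2). The fit had first been run on simulated counts with MLE12 means in both lines and 200 changed genes. In the real data 81.6% of genes were called, so that run cannot tell how scaling and small differences behave under such broad change. The SE is the absolute log2 fold change over the square root of the F statistic, and adjusted p-values under 0.05 were called. Overlapping genes were those of the deposited table whose positions there overlap those of a member. Strand and gene type were looked up in GENCODE M21, in which 98.0% of the gene IDs were found. The ends of Klf3, Klf5, Klf6, Klf9, Klf10 and Klf13 in the deposited table differ from those in that annotation. The members and gene lists were chosen with earlier results of these data known. The rule named all members, every other Klf gene and, from the Sp, cofactor, regulator, target and marker lists, up to 3 called genes per direction with the largest change and a level of 10 CPM or more in either line. Sp3, Sp5, Sp6, Sp7, Sp9, Ctbp1, Ctbp2, Mapk7, Mef2a, Mef2c, Mef2d, Ccnd1, Cdkn1a, Wwp1, Fbxw7 and Vhl, and the markers Sftpb, Epcam, Vim, Col1a2, Tek, Tie1, Emcn, Cd68 and Ptprc, were named outside it, after their values were seen. Alternatives were DESeq2 1.42.0, its size factors, library totals alone, 2 other count filters, a replicate block and leaving out each library.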

Additional observations from a re-analysis of the deposited data

Results flagged for a closer look

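MLE12 replicate 2 had the lowest level of Klf6 in its line, 103.6 CPM, and its gap to the nearest of the other 3 MLE12 libraries was 87.0% of the range of the line. This was the only such value among 20 sets of 4 libraries, and chance gives about 1 in 20. The cause was not tested.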

How the results depend on the processing

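Of 140 values of members under 14 alternatives, all kept their direction and 138 kept their side of the threshold. The exceptions were both with library totals alone: Klf2 passed (-0.37, adjusted p = 0.043) and Klf9 did not (0.11, adjusted p = 0.15). Without scaling factors the median of all genes moved by -0.10 on the log2 scale. Members past 2-fold on the LLC1 side numbered 2, but 1 with library totals alone and 1 with DESeq2, where Klf10 was lost; the cause was not tested. Leaving out any 1 library gave 7387 to 7744 genes higher in LLC1 and 7461 to 7678 higher in MLE12, with 5 and 4 members. The replicate block gave 7380 and 7415 genes and the same counts of 5 and 4 members. Same-numbered libraries did not deviate together (r = -0.06 to 0.11), and 2 of 4 LLC1 libraries correlated best with their own number. Depth limits Klf15 in LLC1, which rests on 24 counts, and Klf1, Klf8, Klf14 and Klf17.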

Other observations

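Sp6 and Sp9, Sp genes not described above, were also higher in MLE12. Sp6, a factor of tooth and skin epithelium, stood at 0.195 ± 0.0688 CPM in LLC1, against 4.64 ± 0.242 CPM in MLE12 (log2 fold change -4.58 ± 0.21). Sp9 stood at 3.36 ± 0.353 CPM in LLC1, against 5.0 ± 0.499 CPM in MLE12 (-0.57 ± 0.12). Sp7, the osteoblast factor, had 52 counts over the LLC1 libraries and 4 over the MLE12 libraries and was not tested. The ubiquitin ligase gene Wwp1, whose product acts on Klf2 and Klf5, was higher in MLE12 (-0.98 ± 0.05), and Fbxw7, another ligase of Klf5, was higher in LLC1 (0.46 ± 0.06). These genes were chosen after their values were seen.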
